A study of Homo sapiens with 6 samples.

Results

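LINC01405 and a set of long noncoding RNAs (lncRNAs) that are well known from cancer biology were examined in HCT116 cells with and without LSD1. The set lists 10 genes by symbol, namely LINC01405, H19, UCA1, NEAT1, MALAT1, GAS5, SNHG1, PVT1, CYTOR and CCAT1. By Ensembl identifier, 9 of the 10 were matched among the 60240 genes of the count table, and CCAT1 was not analysed here. All 9 had enough counts to be among the 17672 genes tested, of which 2834 are annotated as lncRNAs. LINC01405 was placed on the list because of its rise in LSD1 KO cells, so its difference between the groups is described with no test. The remaining genes were listed as lncRNAs of interest with results of the same libraries already known.

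HCT116 is a colorectal carcinoma cell line. RNA-seq was performed on 3 libraries from wild-type (WT) cells and 3 libraries from cells in which LSD1, the histone H3K4 demethylase encoded by KDM1A, had been knocked out (LSD1 KO). Per the study's methods, exon 1 of LSD1 was targeted with CRISPR/Cas9, transfected cells were selected with puromycin, and single clones were grown out. Neither group received a further treatment, and the clone behind each KO library is not given in the sources used here. The labels describe the RNA as polyA RNA and number the libraries of each group from 1 to 3. The study's methods speak in general of biological replicates for its experiments, without saying whether the 3 libraries of a group came from separate cultures, so p-values measure the spread between these libraries, which may be technical.

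LncRNAs are transcribed like messenger RNAs, and many are spliced, but they are not known to encode a working protein. NEAT1 and MALAT1 stay in the nucleus, where NEAT1 is the scaffold of paraspeckles and MALAT1 collects in nuclear speckles. GAS5 and SNHG1 carry small nucleolar RNAs (snoRNAs) in their introns, and their spliced RNAs are removed by nonsense-mediated decay. H19 is an imprinted RNA of fetal tissues, PVT1 and CCAT1 flank the MYC gene, and UCA1 and CYTOR are known for their high levels in carcinomas.

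LINC01405 lies on chr12:111372394-111396897 of GRCh37, on the forward strand, between MYL2, a myosin light chain gene of heart and slow muscle, and the transcription factor gene CUX2. It starts 13146 bases from MYL2 and ends 75071 bases before CUX2. GENCODE lists 13 transcripts for it, and the canonical one has 1417 bases in 3 exons of 122, 223 and 1072 bases.
The antisense gene LINC01404 overlaps LINC01405 over 6138 bases. Sequences of 31 bases shared with LINC01404 on either strand made up 19.31% of those of LINC01405, but they came from 2 of its 13 transcripts and from no part of the canonical one. LINC01404 itself had counts of 2, 6 and 8 in WT libraries and of 2, 0 and 4 in LSD1 KO libraries, so its reads were few beside those of LINC01405 in LSD1 KO cells.

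H19 (chr11:1995176-2001266, GRCh38.p14) is the host of the microRNA gene MIR675 (chr11:1996759-1996831). Both mature products are shown with bases 2 to 8, the seed, in capitals, since they are the small RNAs made from the H19 transcript. Small RNAs were not measured in these libraries.
hsa-miR-675-5p: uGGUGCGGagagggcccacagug
hsa-miR-675-3p: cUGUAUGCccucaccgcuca
The seeds of the pair differ, so that the arms belong to separate seed families.

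The promoters of H19, GAS5 and SNHG1 are shown because each holds the motif CAGGTG, the E-box bound by SNAI and ZEB repressors, which are known to recruit LSD1. Each window has 300 bases on the strand of the gene, from RefSeq on GRCh38.p14, and capitals mark CAGGTG or its reverse complement CACCTG.
H19 promoter (chr11:2001217-2001516, reverse strand): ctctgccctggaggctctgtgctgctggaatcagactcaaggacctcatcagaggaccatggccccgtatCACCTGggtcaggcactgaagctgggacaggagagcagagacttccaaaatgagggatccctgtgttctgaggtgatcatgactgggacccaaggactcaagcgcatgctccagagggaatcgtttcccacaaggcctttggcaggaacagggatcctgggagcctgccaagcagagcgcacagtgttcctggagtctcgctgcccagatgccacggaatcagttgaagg
GAS5 promoter (chr1:173868996-173869295, reverse strand): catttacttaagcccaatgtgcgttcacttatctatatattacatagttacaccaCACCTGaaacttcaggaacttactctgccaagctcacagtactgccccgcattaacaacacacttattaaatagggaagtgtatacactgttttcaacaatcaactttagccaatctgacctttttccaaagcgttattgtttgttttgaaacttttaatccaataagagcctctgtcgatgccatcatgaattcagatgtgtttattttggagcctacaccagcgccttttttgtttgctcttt
SNHG1 promoter (chr11:62855836-62856135, reverse strand): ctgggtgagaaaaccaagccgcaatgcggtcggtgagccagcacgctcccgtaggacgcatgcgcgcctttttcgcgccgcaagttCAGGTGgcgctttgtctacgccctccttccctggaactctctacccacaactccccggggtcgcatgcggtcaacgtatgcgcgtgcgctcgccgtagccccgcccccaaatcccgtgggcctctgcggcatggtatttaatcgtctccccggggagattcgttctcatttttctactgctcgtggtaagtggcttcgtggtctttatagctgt
The RefSeq table held windows for 5 of the 10 genes, 6 windows in all, because MALAT1 has 2. CAGGTG, searched on both strands, was found in 3 of the 6 windows and in 20.6% of all 35116 windows. It began at -180 in H19 and -195 in GAS5, both on the strand opposite to the gene, and at -164 in SNHG1, relative to the start site. CACGTG, the E-box of MYC, was found in none of the 6 windows and in 7.26% of all windows. TGAGTCA, the AP-1 motif, occurred 2 times in the window of CYTOR, at -19 and -9, and was found in 4.95% of all windows. TATAAA was found in 11.5% of all windows, and among the members in one MALAT1 window at -30 and in SNHG1 at 39 on the opposite strand. These matches are a description of the letters in the windows and not of bound factors.

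CYTOR (chr2:87455427-87521518) and MIR4435-2HG (chr2:111195866-111495161) share long stretches of sequence from a duplicated part of chromosome 2. The microRNA gene MIR4435-2 (chr2:111321013-111321086, reverse strand) lies within MIR4435-2HG. Its copy MIR4435-1 (chr2:87629755-87629834, forward strand) lies beyond the annotated end of CYTOR in RefSeq on GRCh38.p14. The hairpins are shown, with the mature microRNA in capitals, because they let the likeness of the duplicated copies be read directly.
MIR4435-1: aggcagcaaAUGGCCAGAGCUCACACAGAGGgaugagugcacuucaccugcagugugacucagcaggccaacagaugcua
MIR4435-2: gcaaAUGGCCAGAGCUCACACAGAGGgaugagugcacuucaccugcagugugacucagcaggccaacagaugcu
The 74-base hairpin of MIR4435-2 is contained in the 80-base hairpin of MIR4435-1 from its base 6 onwards. Of the 31-base sequences of CYTOR transcripts, 61.87% also occur in MIR4435-2HG, so the division of reads between them is uncertain.

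Counts were scaled to CPM, the counts of a gene relative to the size of its library, with edgeR's TMM factors. Library totals ranged from 25379279 to 29186963, and a floor of 3 counts came to 0.0993 to 0.113 CPM. KDM1A, the targeted gene, had 223 ± 8.75 CPM (SD, n = 3) in WT libraries and 28.4 ± 1.30 CPM (SD, n = 3) in LSD1 KO libraries. Among 12 markers of colorectal epithelium the summed level was 2041 to 3816 CPM in WT and 2418 to 3157 CPM in LSD1 KO libraries, with CDX1 at 0 in every library. Most of that sum is keratin, and EPCAM, the epithelial cell adhesion molecule, went from 204 ± 39.2 CPM (SD, n = 3) in WT to 104 ± 28.3 CPM (SD, n = 3) in LSD1 KO libraries, or -0.98 on the log2 scale (q = 0.0788 in edgeR with the block, 0.668 without it). KRT18 had -0.47 (q = 0.230) and KRT19 0.45 (q = 0.123) with the block. Across genes, the common biological coefficient of variation came to 0.279, and to 0.133 when the replicate number was a block in the model. Libraries of the 2 groups that bear the same number deviated together from their group means, with Pearson's r of 0.553, 0.553 and 0.404 across genes, which are not independent replicates. Results are therefore given from both models, with q values from edgeR's quasi-likelihood test adjusted over all 17672 genes.

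The members spanned a wide range of levels. To compare genes, the CPM of each was divided by the length of its canonical transcript in kilobases and averaged over the 6 libraries. GAS5 was highest at 408 ± 67.9 CPM per kb (SD, n = 6) and ranked 4th among the 2834 lncRNAs tested. SNHG1 followed at 205 ± 23.0 CPM per kb and ranked 6th. The difference between these snoRNA hosts was larger than the spread of either.
MALAT1 at 19.9 ± 3.47, PVT1 at 18.0 ± 1.94, CYTOR at 15.6 ± 1.398 and NEAT1 at 15.4 ± 3.92 CPM per kb formed a middle group. Of the neighbours in that order, PVT1 lay above CYTOR by more than the SD of either, and the others differed by less than their SD. UCA1 at 4.65 ± 2.10, LINC01405 at 4.06 ± 4.19 and H19 at 2.97 ± 1.13 CPM per kb were lowest, and their spreads overlapped. LINC01405 moved from rank 1488 of the lncRNAs in WT to rank 172 in LSD1 KO cells, H19 from 587 to 352 and UCA1 from 222 to 389, while the other members kept places near their overall rank. With the longest annotated transcript as the length, CYTOR dropped to 2.12, GAS5 to 99.7, SNHG1 to 63.2 and H19 to 1.37 CPM per kb, so that the levels of these genes depend on the transcript taken to represent them. For NEAT1 and MALAT1 the canonical transcript is also the longest, at 22743 and 10434 bases, so this comparison could not change their levels. GENCODE lists 9 transcripts for NEAT1, and on a shorter one its level per kb would be higher and its place could differ. Which of them the libraries captured was not tested. The labels describe the RNA as polyA RNA, and how fully NEAT1 and MALAT1 were captured was not tested either. Their places below GAS5 and SNHG1 may therefore differ from the amounts in the cells.

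**Figure D1:**
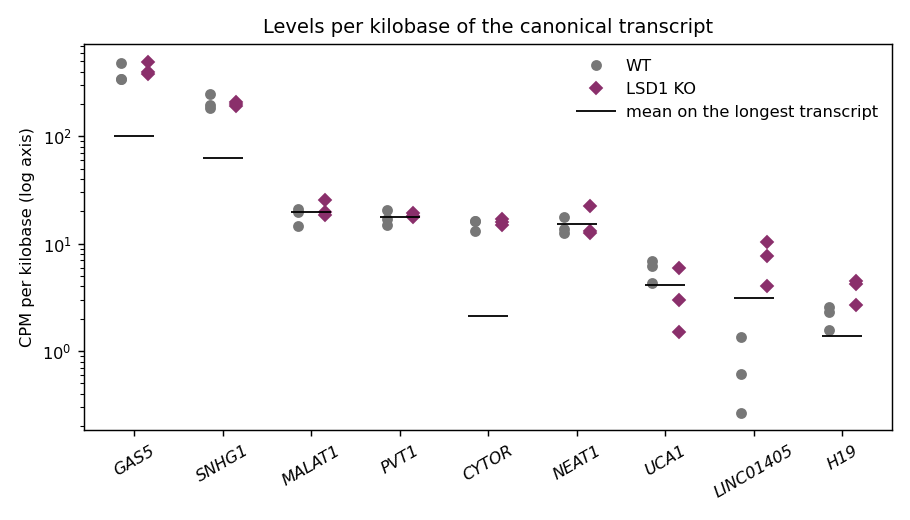
Levels of the 9 lncRNAs in CPM per kilobase of the canonical transcript, on a log axis, with 1 point for each WT (grey) and LSD1 KO (purple) library and a bar for the mean of the 6 libraries when the longest transcript is used. GAS5 and SNHG1 lie above 100 CPM per kb in every library, and the LINC01405 points of the WT libraries lie below all those of the LSD1 KO libraries.

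The 9 genes together took between 0.104% and 0.132% of the counts of a library, while all lncRNA genes took between 1.24% and 1.54%. NEAT1 and MALAT1 accounted for 40.7% to 54.3% of the members' counts, and GAS5 and SNHG1 for 39.3% to 52.5%. GAS5 had between 1.17 and 1.57 times the counts of SNHG1.

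LINC01405 (ENSG00000185847) had counts of 10, 51 and 26 in WT replicates 1, 2 and 3, which are 0.377, 1.93 and 0.860 CPM. In LSD1 KO replicates 1, 2 and 3 it had counts of 305, 154 and 392, which are 10.9, 5.67 and 14.8 CPM. Every LSD1 KO library was above every WT library. Replicate 2 was both the lowest KO library, at 5.67 CPM, and the highest WT library, at 1.93 CPM.
The mean rose from 1.06 ± 0.794 CPM (SD, n = 3) to 10.5 ± 4.59 CPM (SD, n = 3), a ratio of 9.91. Its log2 fold change was 3.31 (standard error, SE, 0.59) without the replicate block and 3.33 (SE 0.54) with it. Within same-numbered pairs, LSD1 KO was 28.9 times the WT value in pair 1, 2.94 times in pair 2 and 17.2 times in pair 3. The direction was thus common to all 3 pairs while the size differed between them, and leaving out pair 2 gave a log2 fold change of 4.36 with the block. With the block, LINC01405 had the largest log2 fold change of the 2834 lncRNAs and ranked 6th by absolute log2 fold change among all 17672 genes. These values are those by which the gene was chosen. In bulk RNA, a larger share of cells that express a gene and more RNA in each cell cannot be told apart.

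Summed levels of markers of other cell types ranged higher in LSD1 KO libraries, with overlap of the groups for the endothelial ones. The summed level of 8 leukocyte markers was 17.7 to 20.9 CPM in WT and 23.6 to 34.7 CPM in LSD1 KO libraries, most of it CD68, while CD3E was at 0 in every library. Of the 3 leukocyte markers tested, 2 had a positive log2 fold change with the block, and the lowest value was -0.76. In edgeR 0 passed, while DESeq2 with the block called 1 of them. For 8 fibroblast markers it was 21.5 to 24.8 CPM and 31.7 to 35.5 CPM, most of it COL1A1 (log2 fold change 0.52, q = 0.0628 in edgeR with the block), with LUM at 0 in every library. For the 5 endothelial markers measured, of 6 listed, it was 0.681 to 1.46 CPM and 1.18 to 2.42 CPM. PTPRC, the pan-leukocyte surface protein, averaged 0 CPM in WT and 0.0368 CPM in LSD1 KO libraries, which is below the floor. The part of these genes in the result for LINC01405 was not tested.

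**Figure D2:**
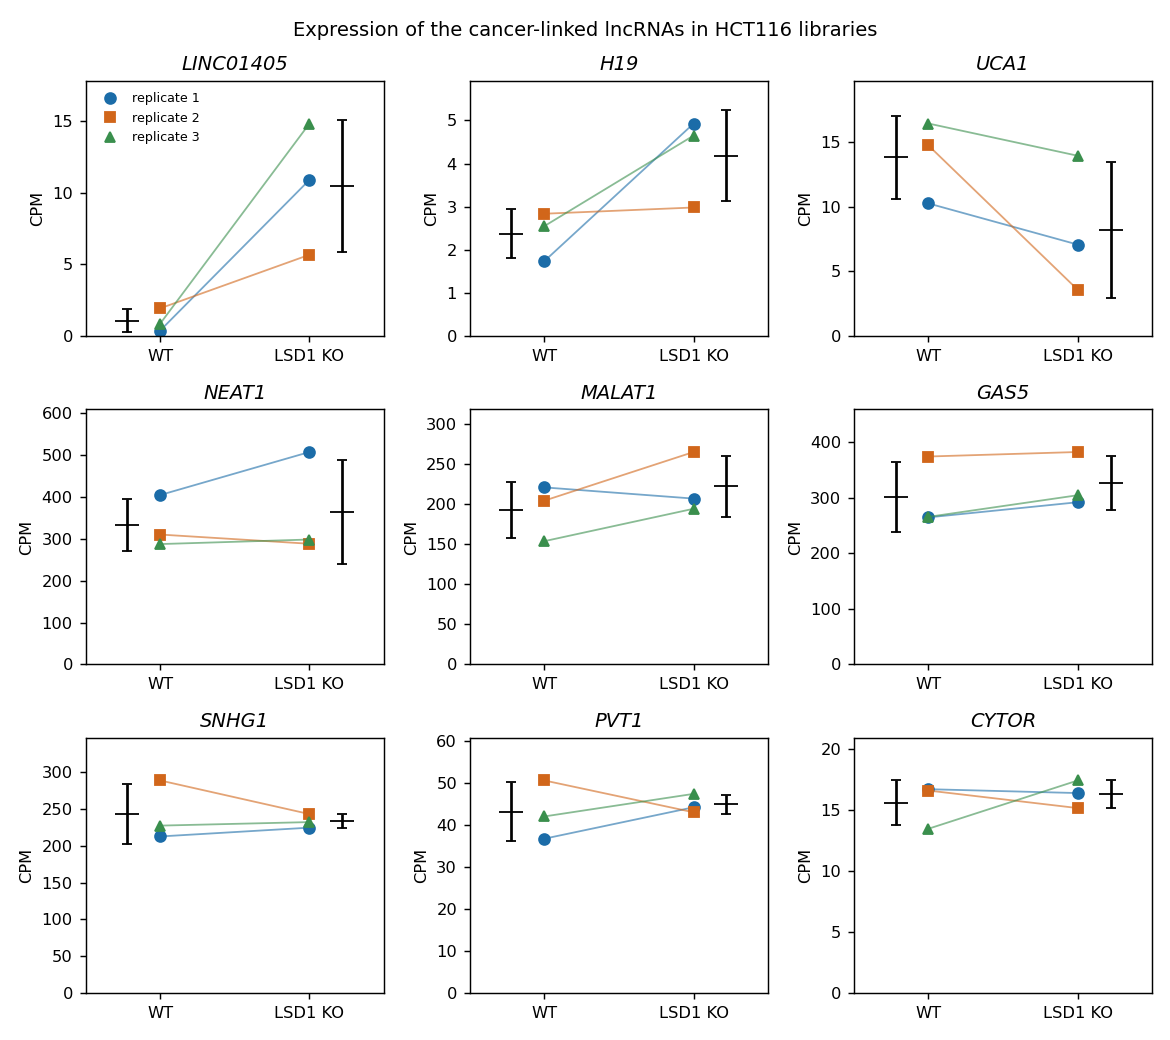
Expression of each lncRNA in CPM (linear axes from 0), with WT libraries on the left and LSD1 KO libraries on the right, lines joining libraries with the same replicate number, and the mean ± SD (n = 3) beside each group. LINC01405 and H19 rise from WT to KO in every pair with no overlap of the groups, UCA1 falls in every pair with overlap, and the other panels show overlapping groups.

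H19 is highly expressed in the fetus and placenta and is made from the maternal chromosome. It had 1.74, 2.84 and 2.55 CPM in WT replicates 1 to 3 and 4.93, 2.98 and 4.65 CPM in LSD1 KO replicates 1 to 3. The groups did not overlap, but the lowest KO library, replicate 2, was only slightly above the highest WT library, replicate 2 as well.
The mean was 2.37 ± 0.571 CPM (SD, n = 3) in WT and 4.19 ± 1.05 CPM (SD, n = 3) in LSD1 KO libraries. The log2 fold change was 0.82 (SE 0.33) without the block and 0.81 (SE 0.30, 95% interval 0.13 to 1.49) with it. The q values from edgeR were 0.999 without the block and 0.287 with it, so H19 did not pass the threshold in either model. A two-sided exact permutation test gave p = 0.1, the smallest that 3 against 3 libraries allow. The log2 difference was 1.47 in pair 1, 0.070 in pair 2 and 0.85 in pair 3, and with pair 2 left out the blocked model gave 1.15 with a q value of 0.0130 from edgeR. Without pair 1 it gave 0.48 (q = 0.519, edgeR) and without pair 3 it gave 0.78 (q = 0.725, edgeR), so both the size and the call for H19 changed with the pair left out.

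UCA1 (urothelial cancer associated 1, chr19:15828947-15836321 of GRCh38.p14) was the 1 member whose level was lower in LSD1 KO cells in every pair. Its values were 10.3, 14.7 and 16.4 CPM in WT replicates 1 to 3 and 7.07, 3.57 and 13.95 CPM in LSD1 KO replicates 1 to 3. KO replicate 3 lay within the WT range, so the groups overlapped.
The means were 13.8 ± 3.20 CPM (SD, n = 3) in WT and 8.20 ± 5.28 CPM (SD, n = 3) in LSD1 KO libraries. The log2 fold change was -0.75 (SE 0.44, q = 0.999) without the block and -0.89 (SE 0.31, 95% interval -1.60 to -0.18, q = 0.267) with it, both from edgeR. UCA1 did not pass the threshold in these models, and a two-sided exact permutation test gave p = 0.2. DESeq2 with the block gave a log2 fold change of -0.92 and a q value of 0.0621, which is under the threshold. The log2 difference was -2.02 in pair 2 against -0.53 in pair 1 and -0.24 in pair 3. With pair 3 left out, edgeR with the block gave -1.27 (q = 0.0851), and with pair 2 left out it gave -0.39 (q = 0.195), so the size of the difference rested largely on pair 2. Part of UCA1 is shared with the annotated gene LINC01764, which holds 19.53% of its 31-base sequences and had between 8 and 21 counts per library.

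NEAT1 (chr11:65422798-65445540, GRCh38.p14), the paraspeckle scaffold, had 405, 310 and 287 CPM in WT and 507, 288 and 298 CPM in LSD1 KO replicates 1 to 3. Replicate 1 was the highest library of both groups, and the groups overlapped. With the block its log2 fold change was 0.09 (SE 0.10, 95% interval -0.14 to 0.33), with a q value of 0.754 from edgeR.
MALAT1 (chr11:65497738-65506516), the neighbour of NEAT1, had 221, 204 and 154 CPM in WT and 207, 265 and 194 CPM in LSD1 KO replicates 1 to 3. Here replicate 3 was the lowest library of both groups. With the block its log2 fold change was 0.21 (SE 0.11, 95% interval -0.05 to 0.46), with a q value of 0.472 from edgeR. With the block, the upper bounds correspond to a rise of 1.25-fold for NEAT1 and 1.38-fold for MALAT1. Without the block the 95% intervals were wider, at -0.46 to 0.72 for NEAT1 and -0.26 to 0.66 for MALAT1 on the log2 scale. Of the 31-base sequences of MALAT1, 67.25% lie in the antisense transcript TALAM1, and the strand setting of the counting is not given in the sources used here.

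GAS5 (growth arrest specific 5, chr1:173863901-173869045 of GRCh38.p14) had 264, 374 and 265 CPM in WT and 292, 382 and 304 CPM in LSD1 KO replicates 1 to 3. Replicate 2 was the highest library of both groups. Its log2 fold change with the block was 0.12 (SE 0.085, 95% interval -0.07 to 0.32), with a q value of 0.582 from edgeR. All 3 pairs were higher in LSD1 KO cells, by 0.14, 0.03 and 0.20 on the log2 scale.
SNHG1 (chr11:62851978-62855885), the host of a cluster of C/D box snoRNAs, had 213, 289 and 228 CPM in WT and 225, 243 and 232 CPM in LSD1 KO replicates 1 to 3. Its spread was 40.4 CPM in WT and 9.28 CPM in LSD1 KO libraries, since WT replicate 2 stood above the others. The log2 fold change with the block was -0.05 (SE 0.096, 95% interval -0.27 to 0.17), with a q value of 0.877 from edgeR. Without the block the 95% intervals were -0.35 to 0.58 for GAS5 and -0.45 to 0.34 for SNHG1.

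PVT1, the transcript downstream of MYC, had 36.7, 50.5 and 42.0 CPM in WT and 44.1, 42.9 and 47.3 CPM in LSD1 KO replicates 1 to 3. The KO libraries lay inside the range of the WT libraries. Its log2 fold change with the block was 0.07 (SE 0.12, 95% interval -0.20 to 0.34), with a q value of 0.847 from edgeR.
CYTOR, the cytoskeleton regulator RNA, had 16.7, 16.6 and 13.5 CPM in WT and 16.4, 15.2 and 17.4 CPM in LSD1 KO replicates 1 to 3, with a coefficient of variation of 8.93% over the 6 libraries, the smallest of the members. Its log2 fold change with the block was 0.07 (SE 0.14, 95% interval -0.24 to 0.39), with a q value of 0.868 from edgeR. Without the block the 95% intervals were -0.33 to 0.44 for PVT1 and -0.34 to 0.47 for CYTOR. Because CYTOR shares most of its sequence with MIR4435-2HG, their CPM were also added, which gave 47.6 ± 4.08 CPM (SD, n = 3) in WT and 52.7 ± 5.41 CPM (SD, n = 3) in LSD1 KO libraries. The sum differed by a ratio of 1.11, with p = 0.3 in a two-sided exact permutation test, and its groups overlapped as those of CYTOR did.

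**Figure D3:**
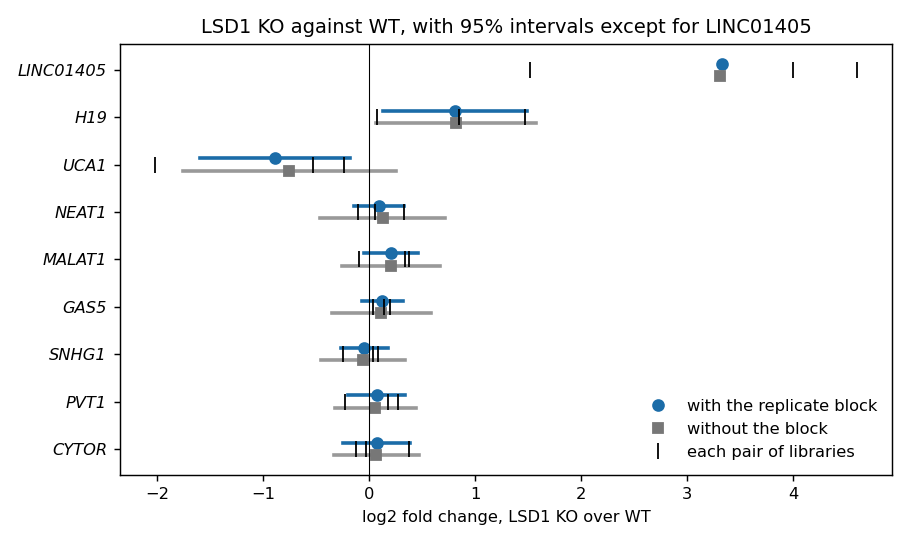
Log2 fold changes of LSD1 KO over WT for the 9 lncRNAs from edgeR with (circles) and without (squares) the replicate block, with 95% intervals except for LINC01405, and a tick for each same-numbered pair of libraries. The intervals of NEAT1, MALAT1, GAS5, SNHG1, PVT1 and CYTOR include 0 in both models, and that of H19 excludes 0 in both although its q value misses the threshold.

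At a q value under 0.1, 0 of the 9 genes passed in the model without the block, in which 0.00566% of all genes tested passed, that is KDM1A alone. In that model 2 of the 9 genes, LINC01405 and H19, had an unadjusted p under 0.05 in edgeR, against 3.12% of all genes. The edgeR model with the block gave 3 of the 9, LINC01405, H19 and UCA1, against 13.4% of all genes. DESeq2 without the block called 1 of the 9, LINC01405, against 0.37% of its genes. With the block 1 of the 9 passed, LINC01405, against 1.6% of all genes. LINC01405 was chosen by this contrast, so nothing is read from its part in any count of this paragraph. None of the other 8 passed with the block, and DESeq2 with the block called UCA1 beside LINC01405, against 3.96% of the genes it tested. Groups did not overlap for 2 of the 9, LINC01405 and H19, against 7.75% of all genes, and in both KO was higher, as in 4.2% of all genes, while 3.55% had KO lower. All 3 pairs were higher in LSD1 KO for 3 of the 9, LINC01405, H19 and GAS5, against 18.8% of all genes. All 3 were lower for 1 of the 9, UCA1, against 17.5%.

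The replicate number that the labels share between groups is independent of the difference between LSD1 KO and WT, so its term in the blocked model was tested for each gene. For 3 of the 9 lncRNAs the term passed at a q value under 0.1 in edgeR, against 41.2% of all genes and 21.8% of the lncRNAs tested. The members that passed were the nuclear RNAs NEAT1 and MALAT1 and the snoRNA host GAS5.
NEAT1 averaged 456 CPM in replicate 1 against 299 and 293 CPM in replicates 2 and 3 (q = 0.0117, edgeR). GAS5 averaged 378 CPM in replicate 2 against 278 and 285 CPM in replicates 1 and 3 (q = 0.0223, edgeR). MALAT1 averaged 174 CPM in replicate 3 against 214 and 234 CPM in replicates 1 and 2 (q = 0.0870, edgeR). A different replicate thus stood apart for each of these genes, and for each the call was lost when that replicate number was left out. That replicate was picked from the same values, so the loss of the call adds nothing to the description. UCA1 had a q value of 0.124 and SNHG1 one of 0.186, and those of PVT1, LINC01405, H19 and CYTOR were between 0.472 and 0.869. UCA1 passed instead when replicate 1 (q = 0.0669) or replicate 2 (q = 0.000607) was left out, and under other filters, upper-quartile factors and DESeq2's likelihood ratio test. LINC01405 passed when replicate 2 was left out (q = 0.0797), and MALAT1 did not pass with upper-quartile factors.

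**Figure D4:**
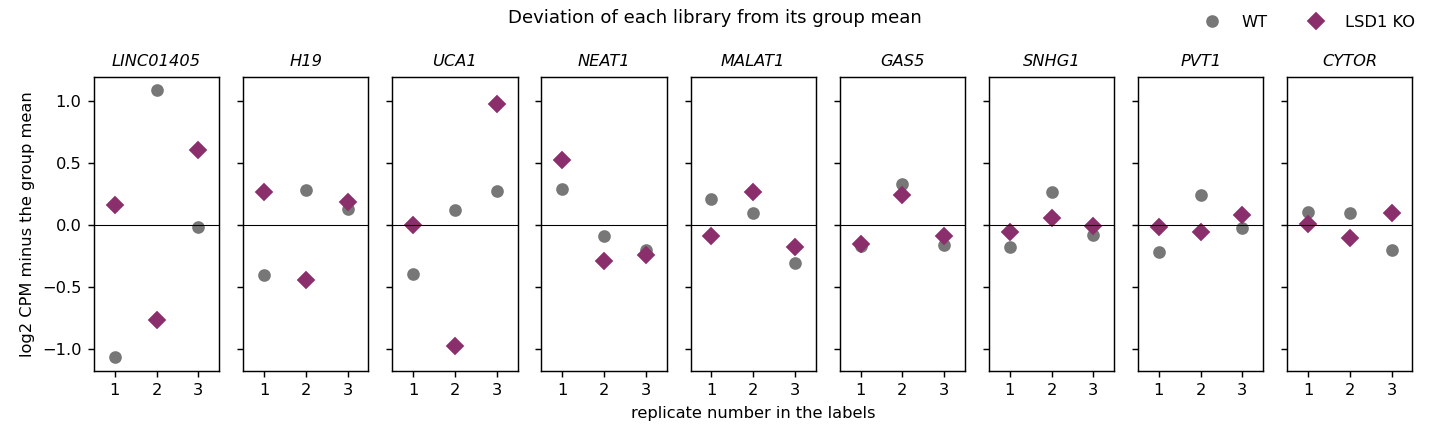
Deviation of each library from the mean of its group in log2 CPM, by replicate number, for WT (grey circles) and LSD1 KO (purple diamonds). For NEAT1 replicate 1 is above and for GAS5 replicate 2 is above the group mean in both groups, while for LINC01405 replicate 2 is the highest WT library and the lowest KO library.

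Across the 6 libraries, Pearson's r of log2 CPM between members was highest for LINC01405 and H19, at 0.947, and lowest for MALAT1 and UCA1, at -0.83. GAS5 and SNHG1 had an r of 0.806. These are descriptions over libraries that share the group difference and the replicate numbers. Among all genes tested, the most alike to LINC01405 were FAM72A (r = 0.998), a member of a multicopy family whose reads may be shared, the unnamed gene ENSG00000280107 (r = 0.994) and TRIB1 (r = 0.986), with 32 genes above 0.95. For H19 the closest gene was STOM (r = 0.984), and for UCA1 it was IGDCC3 (r = 0.997). NEAT1 was closest to AIMP1 (r = 0.992), MALAT1 to ENSG00000288586 (r = 0.987), GAS5 to ENKD1 (r = 0.994) and SNHG1 to YDJC (r = 0.997). PVT1 was closest to TRIM65 (r = 0.994) and CYTOR to ENSG00000260051 (r = 0.988), all over 6 libraries.

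Genes related to the members by pathway, nuclear body, gene class or chromosomal position were then counted from lists. With the block, 1.05% of all genes tested rose and 0.549% fell at a q value under 0.1 in edgeR. Of the 2834 lncRNAs, 6 rose and 8 fell, and their median log2 fold change was 0.017, against 0.0030 over all genes. Of the 210 genes tested on the lists that follow, 0 passed in edgeR without the block, 6 had an unadjusted p under 0.05 there, and DESeq2 without the block called 2.
Among 24 other snoRNA host genes, 0 rose and 0 fell, with a median log2 fold change of -0.03. The most abundant were SNHG29 (log2 fold change 0.10, q = 0.714), SNHG16 (0.15, q = 0.567) and SNHG6 (0.22, q = 0.312). The replicate term passed for 13 of these 24 genes, against 41.2% of all genes. Among 18 factors of nonsense-mediated decay, which removes GAS5 and SNHG1 RNA, 0 rose and 0 fell, with a median of -0.07. EIF4A3 of the exon junction complex (-0.13, q = 0.609), the kinase SMG1 (0.12, q = 0.640) and the helicase UPF1 (-0.08, q = 0.761) were the most abundant.

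For the nuclear bodies of NEAT1 and MALAT1, 30 of 31 paraspeckle proteins and 28 nuclear speckle proteins were tested. Among the paraspeckle proteins 1 rose, ZC3H6, a zinc finger protein, and 0 fell. ZC3H6 had 14.6 ± 4.56 CPM (SD, n = 3) in WT and 24.4 ± 8.04 CPM (SD, n = 3) in LSD1 KO libraries, or 0.73 on the log2 scale (SE 0.12, q = 0.0381 in edgeR with the block). The call was lost with pair 3 left out (q = 0.207). The core proteins stood elsewhere, with NONO at -0.08 (q = 0.736), HNRNPK at -0.06 (q = 0.822) and HNRNPA1 at 0.03 (q = 0.946), and the list's median was -0.10. Of the speckle proteins 0 rose and 0 fell, with a median of 0.03. SRRM2 and SRSF2, which organise speckles and splicing, had log2 fold changes of 0.14 (q = 0.507) and -0.34 (q = 0.261), and the spliceosome subunit SF3B1 had 0.06 (q = 0.783).

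In the surroundings of H19, 17 of 27 imprinted genes and IGF2 mRNA-binding proteins were tested, with 0 that rose and 1 that fell. This was IGF2BP3, an oncofetal RNA-binding protein that is not itself imprinted, from 98.0 ± 23.4 CPM (SD, n = 3) to 69.6 ± 11.1 CPM (SD, n = 3), or -0.48 on the log2 scale (SE 0.094, q = 0.0744 in edgeR with the block). The call was lost with pair 1 (q = 0.114) or pair 3 (q = 0.456) left out. The most abundant were GNAS (-0.10, q = 0.655), PHLDA2, a maternally expressed gene near H19 (-0.25, q = 0.385), and IGF2BP2 (0.01, q = 0.987).
Of the MYC neighbourhood of PVT1, 12 of 19 listed genes were tested, and 1 rose and 0 fell. TRIB1, a pseudokinase, rose from 226 ± 24.5 CPM (SD, n = 3) to 419 ± 40.8 CPM (SD, n = 3), or 0.89 on the log2 scale (SE 0.11, q = 0.0157 in edgeR with the block). MYC itself had 319 ± 90.2 CPM in WT and 378 ± 109 CPM in LSD1 KO libraries (0.25, q = 0.609), and CYRIB had -0.05 (q = 0.829).

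MYL2, the nearest gene to LINC01405 on the list, had too few counts to be tested. It had counts of 4, 5 and 9 in WT and 18, 8 and 34 in LSD1 KO replicates 1 to 3, which are 0.213 ± 0.0762 CPM (SD, n = 3) and 0.741 ± 0.503 CPM (SD, n = 3). KO was higher in every pair, while KO replicate 2 lay just below WT replicate 3, so the groups overlapped. Around LINC01405, 21 of 25 listed genes of its chromosomal neighbourhood were tested, and 0 rose and 0 fell, with a median log2 fold change of 0.12. The most abundant were the calcium pump gene ATP2A2 (-0.07, q = 0.767), the phosphatase subunit gene PPP1CC (0.19, q = 0.393) and the actin nucleation gene ARPC3 (0.05, q = 0.861). Because LINC01405 is next to MYL2, 40 muscle genes were listed, of which 12 could be tested, MYL2 not among them. Among these 0 rose and 0 fell, with a median of 0.17, and TNNT1 (0.11, q = 0.768), MEF2C (0.31, q = 0.270) and TNNI3 (0.29, q = 0.389) were the most abundant.
Around UCA1, 9 of 12 listed genes were tested, and 0 rose and 0 fell, with a median of 0.28. TPM4, a tropomyosin, had -0.02 (q = 0.948), RAB8A -0.02 (q = 0.963) and the fatty acid hydroxylase gene CYP4F11 0.51 (q = 0.123).

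Finally, of 68 other cancer-linked lncRNAs, 39 were tested, and 2 rose and 0 fell, with a median log2 fold change of 0.028. LUCAT1, a lncRNA known from the airways of smokers and from lung cancer, rose from 5.78 ± 1.30 CPM (SD, n = 3) to 16.2 ± 8.001 CPM (SD, n = 3), or 1.39 on the log2 scale (SE 0.21, q = 0.0282 in edgeR with the block). GIHCG rose from 4.15 ± 1.36 CPM (SD, n = 3) to 8.08 ± 4.15 CPM (SD, n = 3), or 0.90 on the log2 scale (SE 0.19, q = 0.0915 in edgeR with the block). The call was lost with pair 1 (q = 0.116) or pair 3 (q = 0.133) left out, and without the block, where the log2 fold change was 0.96, it fell to 0.44 without LSD1 KO replicate 2. The abundant lncRNAs NORAD (-0.04, q = 0.879), OIP5-AS1 (0.08, q = 0.767) and FGD5-AS1 (-0.12, q = 0.597) did not pass. All lists were chosen with results of these libraries known.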

How the data were processed

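RNA-seq reads were trimmed by the authors with Trimmomatic 0.39 and quantified with Salmon 1.4.0 against the GENCODE transcriptome on GRCh38, per the labels and the methods. The authors deposited expected counts per gene in whole numbers that carry no scaling to library size. The step from transcripts to genes and its strand setting are not given in the sources used here. Symbols were matched for 58395 of 60240 genes.

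The 3 LSD1 KO libraries were set against the 3 WT libraries in edgeR 4.0.16 (TMM, filterByExpr, quasi-likelihood F test, Benjamini-Hochberg, q under 0.1), without and with the replicate number as a block. The numbers were taken to pair the libraries because each same-numbered pair deviated together. DESeq2 1.42.0, other size factors, other filters and leaving out libraries were alternatives. Single values were compared with exact permutation tests in SciPy 1.17.1. Steps were tested on simulated data.

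Named genes were the members, KDM1A, and from each list the 3 most abundant genes and up to 6 with a q value under 0.1 in the blocked model, with the genes most correlated with each member. MYC, MYL2 and the cell type markers were named after their values were seen. Members and lists were chosen with earlier results of these data known. Lengths, LINC01405 and shared sequences are from GENCODE v44lift37 (GRCh37), the other sequences from RefSeq (GRCh38.p14). The intervals given are those of fold changes, from edgeR's quasi-likelihood test, and the floor is a fixed 3 counts.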

Additional observations from a re-analysis of the deposited data

How the results depend on the processing

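The number of genes called between LSD1 KO and WT was 1 in edgeR with no block, 282 with the replicate block, 114 when every gene with a count was kept, 95 with DESeq2 and 593 with DESeq2 and the block. With the block it was 428, 1055 and 198 without replicate 1, 2 and 3, and 295 and 340 with RLE and upper-quartile factors, both chosen after seeing the data. Single libraries left out gave 1 to 26 genes, the most without LSD1 KO replicate 2. Of the 9 lncRNAs, 0 were called without the block and with single libraries left out, 1 with every gene kept, 1 with DESeq2, 1 with the block, 2 with DESeq2 and the block, and 1, 2 and 2 with the block without replicate 1, 2 and 3. The block with RLE or upper-quartile factors called 1 each. LINC01405, which was chosen by this contrast, is among the 9 in each of these counts. Genes on the related lists numbered 0 without the block, 2 with every gene kept, 2 with DESeq2, 5 with the block, 13 with DESeq2 and the block, 8, 16 and 4 with the block without replicate 1, 2 and 3, and 5 and 6 with the block and RLE or upper-quartile factors. The replicate term passed for 7273 genes and for 4740, 5030 and 5768 without replicate 2, 1 and 3.

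Leaving out single libraries changed the sign of small log2 fold changes, which then ranged from -0.19 to 0.29 for NEAT1, -0.046 to 0.18 for PVT1, -0.0298 to 0.12 for CYTOR, -0.033 to 0.29 for GAS5 and -0.15 to 0.078 for SNHG1. With the block and 1 replicate number left out the reversed values were -0.026 for NEAT1 and -0.0299 for PVT1 (replicate 1), -0.076 for CYTOR (replicate 3) and 0.037 for SNHG1 (replicate 2). Over all alternatives LINC01405 ranged from 2.78 to 4.36, H19 from 0.48 to 1.15 and UCA1 from -1.38 to -0.39, with no change of sign over 18 alternatives each. Among the list genes called with the block, LUCAT1 ranged from 1.07 to 1.81, GIHCG from 0.44 to 1.22, ZC3H6 from 0.44 to 1.02, IGF2BP3 from -0.69 to -0.38 and TRIB1 from 0.81 to 1.01. Besides LINC01405, the block changed no call among the members in edgeR. Levels of LINC01405 and H19 in WT libraries rest on 10 to 77 counts, which limits their precision. The causes of these changes were not tested.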
